A study of Mus musculus with 5 samples.

Results

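The cells described here are the 73 contractile-gate cells of 1 untreated mouse colon library. A cell was taken when its raw counts of unique molecular identifiers (UMIs, 1 per captured RNA molecule) for Actg2, Myh11, Des, Hhip and Cnn1 summed to 5 or more and those of Rgs5 and Notch3 to under 2. They were 73 of the 1095 cells kept in that library (6.67%, exact 95% binomial interval 5.26 to 8.31) and came from a series of 8491 kept cells in 5 inDrop single-cell RNA libraries. The normal colon library came from an untreated wild-type mouse and from a dissociation that shook off the crypts and digested the remaining lamina propria and stroma, so it also held epithelial cells that stayed with the stroma. The other 4 libraries held wild-type mice's azoxymethane and dextran sodium sulfate (AOM/DSS) tumors under 5-fluorouracil and irinotecan, with 2 libraries of day 1 and 1 each of days 3 and 6. The study's methods name mice of C57BL/6J background, or of that background mixed with 129, and a range of weeks for the age at the start, and the labels give neither for the normal mouse. Since the 73 cells share 1 library and 1 preparation, every interval below covers counting error only, and no difference between cell groups has a test over animals.

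Contractile cells of the gut shorten when calcium activates myosin light chain kinase, which lets smooth muscle myosin pull on alpha and gamma smooth muscle actin. Smooth muscle of the muscle layers and of the muscularis mucosae carries the intermediate filament desmin, while myofibroblasts beside the crypts are known for alpha smooth muscle actin with little or no desmin. Epithelial Hedgehog ligands act on the mesenchyme beneath, where Hhip, which binds those ligands, is one of the genes that the pathway switches on. The same layer supplies the crypts with WNT and BMP ligands, their antagonists, growth factors and matrix.

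The 73 cells held 233928 UMIs, with a median of 2558 UMIs and 1409 genes per cell. A single count pooled over them is 4.27 CPM, the count scaled to 1000000 UMIs, and a gene with 0 counts can stand at up to 12.8 CPM by the level that 3 counts would give (exact upper limit 15.8). They were set beside cells of the same library chosen by their own marker sums: 282 fibroblast-gate cells (Clec3b, Dpt, Svep1, Fbln1 and Col14a1), 57 telocyte-gate cells (F3, Pdgfra, Sox6 and Foxl1) and 41 pericyte-gate cells (Rgs5, Notch3, Kcnj8 and Abcc9). The medians of these groups were 2453, 2420 and 2710 UMIs per cell. Of the 41 pericyte-gate cells, 20 also met the contractile sum and were kept out of the 73 only by Rgs5 or Notch3, so levels near those of the contractile cells are partly built into that group. The 366 epithelial-gate cells (median 6324 UMIs) give a level of free RNA in cells that should lack a stromal gene. They are deeper, so an equal number of free counts per cell is a lower CPM there. Their level is therefore not an upper limit for free RNA in the contractile-gate cells.

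The genes that chose the cells were spread unequally over them. Des was absent from most cells, while Hhip, Myh11, Actg2 and Cnn1 were found in most. Hhip had a UMI in 66 of the 73 cells and Des in 29. Of all cells, 39 held Hhip without Des, 27 held both, 2 held Des without Hhip and 5 held neither. Per cell, Hhip ran from 0 through a median of 11 to 69 UMIs and Des from 0 through a median of 0 to 16. Myh11, the smooth muscle myosin heavy chain, was found in 71 cells (median 11 UMIs), Actg2, the gamma smooth muscle actin, in 64 (median 4) and Cnn1, the actin-binding calponin, in 51 (median 1). The single cell with 16 Des UMIs held 0 of Hhip and 14 of Actg2 among 1039 UMIs. In the count of UMIs, 64 cells held more Hhip than Des, 2 held more Des, 2 held equal counts of both and 5 held neither. The limit on Rgs5 and Notch3 also left out the cells richest in Des, as given below. Since Des was absent from most of the 73 cells, they are called contractile-gate cells here.

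**Figure D1:**
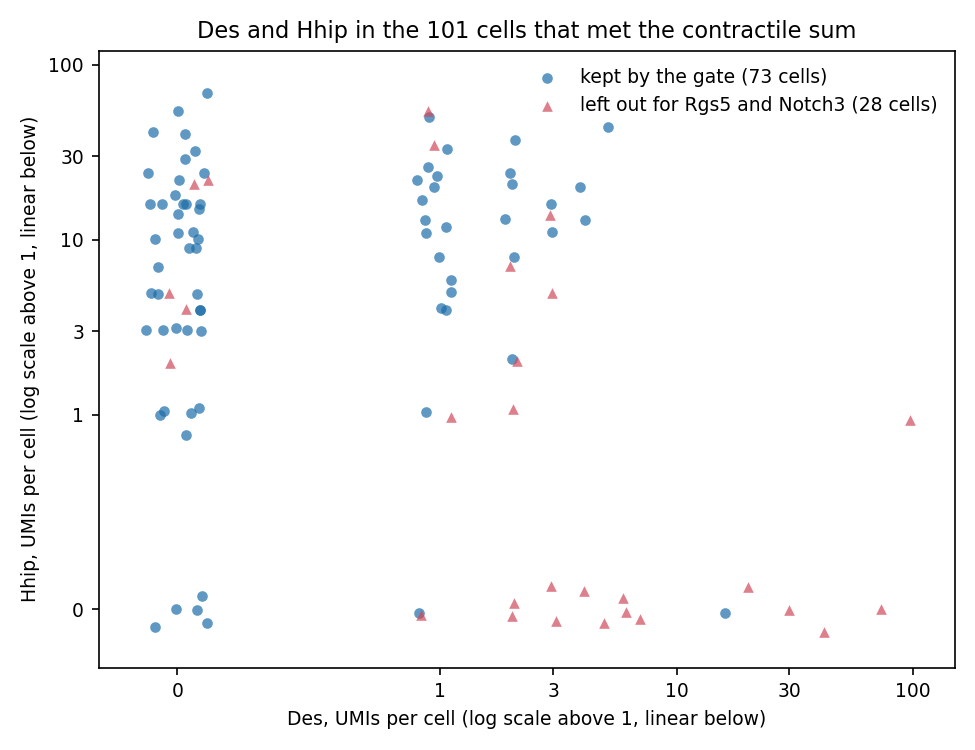
Each point is 1 of the 101 cells with 5 or more UMIs of the 5 contractile genes, with Des UMIs on the horizontal and Hhip UMIs on the vertical axis (logarithmic above 1, linear below, points jittered slightly). Circles are the 73 cells kept by the gate, triangles the 28 left out because Rgs5 and Notch3 summed to 2 or more, and the 5 triangles with 20 to 97 Des UMIs lie along the bottom at 0 or 1 Hhip UMI.

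Des-rich cells existed in the library and fell outside the gate. Among the 101 cells that met the contractile sum, 28 were left out for Rgs5 and Notch3, 16 of them with more Des than Hhip. In 5 of those the Des counts were 97, 73, 42, 30 and 20 UMIs, against Hhip counts of 1, 0, 0, 0 and 0. Their Rgs5 counts were 22, 6, 11, 2 and 18 and their Notch3 counts were 0 throughout, in cells of 5616 to 11201 UMIs. The threshold of 20 Des UMIs that sets these 5 cells apart was chosen after their values were seen. Pooled, they stood at 5952 CPM of Des, where the contractile-gate cells stood at 274 CPM (exact 95% Poisson interval 211 to 349; such intervals follow levels in parentheses below).

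Near the limits of the gate the cells thinned out gradually. There were 11 contractile-gate cells with a sum of 5 to 9 and 4 with exactly 5, against 5 cells just outside with 4 and 7 with 3. For Rgs5 and Notch3, 66 of the 73 cells held 0 and 7 held 1 UMI, while 7 cells were left out with exactly 2. The 5 chosen genes made up 0.048% to 4.97% of a cell's UMIs (median 1.37%).

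Markers of other cells that the droplets could hold were present in some of the 73. The fibroblast gate was also passed by 18 of them, the telocyte gate by 6, the epithelial gate by 5, the pericyte gate by 2, and the endothelial, immune and glial gates by 1 each. No other gate was passed by 48 cells, which were shallower (median 1402 UMIs). They held 97038 UMIs, so 0 counts there allow up to 30.9 CPM by the level that 3 counts would give. Summed epithelial markers stood at 2052 CPM in the 73 cells, with up to 102 UMIs in 1 cell, at 587 CPM in the 48 and at 10275 CPM in epithelial-gate cells. Summed fibroblast markers stood at 1278 CPM in the 73 cells, at 381 CPM in the 48 and at 9031 CPM in fibroblast-gate cells. The markers of interstitial cells of Cajal summed to 23 counts in 12 of the 73 cells (98.3 CPM, against 375 CPM in epithelial-gate cells), with 21 counts of Ano1, 2 of Etv1 and 0 of Kit. Notch3, a receptor of pericytes that the rule limits to under 2, had 0 counts. For genes whose level in the 48 cells differed widely, that level is given below for many of them. Scrublet called 1 of the 73 cells a doublet. The barcodes of 5 of them also occur in a tumor library, as do 50 of all kept barcodes of the normal colon.

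Beyond the gate, the contractile apparatus was seen almost throughout. Acta2, alpha smooth muscle actin, had a UMI in 71 cells (median 30, highest 143) and stood at 12273 CPM (11828 to 12730). The level was 494 CPM in fibroblast-gate, 2128 in telocyte-gate and 44.3 in epithelial-gate cells, and it was higher in pericyte-gate cells, at 14630 CPM (ratio 0.839, 0.792 to 0.889). In the 48 cells Acta2 stood at 19147 CPM. Tagln (transgelin) stood at 5946 CPM, against 9933 in pericyte-gate cells. Mylk (myosin light chain kinase) stood at 3869 CPM, Myl9 (its regulatory light chain substrate) at 3249 and Tpm2 (a tropomyosin) at 2886. Lmod1, which nucleates actin filaments in smooth muscle, stood at 547 CPM in 51 cells, against 9.18 in fibroblast-gate cells and 0 counts in telocyte-gate cells. Of the 25 other contractile genes with 20 or more counts over the 4 groups, 13 were at least 4-fold higher than in fibroblast-gate cells, 7 than in telocyte-gate cells and 0 than in pericyte-gate cells. Their median log2 folds were 2.02, 1.58 and -0.07. All genes passing the same minimum had medians of 0.046, 0.0022 and 0.054. In pericyte-gate cells without the contractile sum (21 cells), Acta2 stood at 493 CPM and Lmod1 at 61.7. Per cell, the list took 0.20% to 13.2% of UMIs in the 73 cells (median 6.68%) and a median of 0.43% in fibroblast-gate cells.

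Serum response factor, with its partner myocardin, controls many of these genes through the CArG box, a motif of 10 bases read the same way on both strands. In windows from 250 bases before to 50 bases after each gene's start (RefSeq, build GRCm38.p6), the box was present in 6 of 30 windows of the contractile list, belonging to 5 of the 24 genes that matched (Fhl1, Ldb3, Myl6, Myl9 and Vcl), and both Ldb3 windows hold the same box. Over all 32851 windows, 1.63% hold it. None of the 3 matched windows of the chosen genes did, which says only that the exact letters are not in those windows. The windows of Myl9 (chr2:156775214-156775513, plus strand, box beginning 161 bases before the start) and Myl6 (chr10:128492960-128493259, minus strand, 50 bases before) are shown because both genes were detected in 71 of the 73 cells. Myl6 is not particular to these cells. It was found in 93.7% of epithelial-gate and 76.6% of fibroblast-gate cells, at 1041 and 748 CPM, against 4476 CPM in contractile-gate cells. Capitals mark the CArG box.
Myl9: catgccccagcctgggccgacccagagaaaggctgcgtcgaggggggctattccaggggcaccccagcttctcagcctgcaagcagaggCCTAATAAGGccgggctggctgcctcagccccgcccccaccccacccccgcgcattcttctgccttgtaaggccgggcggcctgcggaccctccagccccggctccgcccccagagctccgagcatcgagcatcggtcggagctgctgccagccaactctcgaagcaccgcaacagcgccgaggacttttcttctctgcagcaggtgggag
Myl6: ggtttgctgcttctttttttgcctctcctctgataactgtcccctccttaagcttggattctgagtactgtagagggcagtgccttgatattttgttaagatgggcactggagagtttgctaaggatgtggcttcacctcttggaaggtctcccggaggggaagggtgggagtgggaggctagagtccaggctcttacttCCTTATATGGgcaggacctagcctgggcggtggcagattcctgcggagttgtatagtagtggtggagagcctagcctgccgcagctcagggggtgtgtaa

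Across all genes, few differed widely from the other mesenchymal cells. With 20 CPM added to both sides, 84 of 8482 genes (0.99%) were at least 4-fold higher and 97 (1.14%) at least 4-fold lower than in fibroblast-gate cells. Genes of the gates were not left out of this count or the ones that follow, so a part of each is built in. Against telocyte-gate cells the counts were 113 (1.33%) and 63 (0.743%), and against pericyte-gate cells 70 (0.825%) and 109 (1.29%). Against pericyte-gate cells without the contractile sum, 254 genes (2.99%) were higher and 188 (2.22%) lower, in a set that was also smaller (21 cells with 48636 UMIs, against 133292 UMIs in all 41). Against the 3 groups pooled, 38 genes (0.448%) were higher and 81 (0.955%) lower. These shares are the background for the calls by list, and no list was tested against them. Only 10 genes were at least 4-fold higher than in each of the 3 groups taken singly. Besides Hhip, 4 of them were Igf1, Cpxm2, Actc1 and Il1r2, and 2 were the near-identical chemokine copies Ccl21a and Ccl21c, while 6 of the 10 had over 50% of their counts in 3 cells.

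Igf1, a growth factor for epithelium and muscle, was the secreted signal that stood above all 3 groups and was spread widely. Igf1 was found in 44 of 73 cells, with 0 to 9 UMIs per cell and a median of 1. It stood at 470 CPM (386 to 567), against 88.3 in fibroblast-gate, 68.3 in telocyte-gate, 60.0 in pericyte-gate and 1.98 in epithelial-gate cells. The ratio to fibroblast-gate cells was 5.32 (3.94 to 7.22), and in the 48 cells of no other gate the level was 598 CPM. After each cell was thinned to 1000 UMIs, 46.9% of contractile-gate and 5.86% of fibroblast-gate cells held a UMI of Igf1.

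Several proteins that bind IGF1 were lower than in fibroblast-gate cells. Igfbp4 stood at 89.8 CPM in 4 contractile-gate cells against 2129 CPM in fibroblast-gate cells (ratio 0.042, 0.026 to 0.065). Igfbp3 stood at 29.9 CPM, also in 4 cells, against 1383. Both had 0 counts in the 48 cells of no other gate. Igfbp5 stood at 359 CPM in 23 cells, with 53.6% of its counts in 3 of them, and Igfbp7 at 427 CPM in 40 cells. Igfbp5 was above its level in telocyte-gate cells (124 CPM, ratio 2.89, 1.76 to 4.98). Of the 6 IGF binding proteins, 3 were at least 4-fold lower than in fibroblast-gate cells, 1 (Igfbp2) than in pericyte-gate cells and 0 than in telocyte-gate cells. Their median log2 folds were -2.22, -1.46 and -0.35 in that order.

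Among the other growth factors, Pdgfc, a ligand of the PDGF receptor alpha, was found in 17 cells at 107 CPM (69.2 to 158). In fibroblast-gate cells Pdgfc stood at 3.44 CPM, in telocyte-gate cells it had 0 counts, and in pericyte-gate cells it stood at 37.5. In the 48 cells it stood at 206 CPM. Gdnf, a survival factor for enteric neurons, was found in 15 cells at 103 CPM (65.7 to 153), which is near the 130 CPM of telocyte-gate cells and above the 12.6 CPM of fibroblast-gate cells (ratio 8.13, 3.83 to 18.4). Ctgf, a matricellular growth regulator, stood at 445 CPM against 1939 in fibroblast-gate cells, and Fgf10, an epithelial growth factor, had 3 counts. Fgf9 had 18 counts in 6 cells and 0 in the 48. Of 28 growth factors, 2 were higher and 2 lower than in fibroblast-gate cells, 2 and 1 than in telocyte-gate cells, and 3 and 1 than in pericyte-gate cells, with median log2 folds of 0.09, -0.28 and -0.06.

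BMP and WNT ligands were mostly lower than in telocyte-gate cells. Bmp4 was found in 61 cells at 1047 CPM (920 to 1187), between pericyte-gate cells at 465 and fibroblast-gate cells at 1933, with telocyte-gate cells at 2687. Bmp2 stood at 235 CPM against 1185 in telocyte-gate cells, while its level in epithelial-gate cells was 225 CPM. Bmp2 stood at 134 CPM in the 48. Bmp7 was found in 4 cells and had 0 counts in the 48. Wnt5a, a non-canonical WNT ligand, stood at 197 CPM against 1353 in telocyte-gate cells, with 69.6% of its counts in 3 cells and 30.9 CPM in the 48. Wnt4 stood at 47.0 CPM against 306 in fibroblast-gate and 416 in telocyte-gate cells, and at 30.9 CPM in the 48. Of 8 BMP ligands, 3 were at least 4-fold lower than in telocyte-gate cells and 0 differed so far from the other groups (median log2 folds against fibroblast-gate, telocyte-gate and pericyte-gate cells -0.50, -1.48 and 0.78). Of 5 WNT ligands and R-spondins, 1, 2 and 1 were lower in that order (medians -1.06, -1.86 and -0.61).

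The antagonists of both pathways split in the same cells. Grem1, which holds BMP ligands away from their receptors, had 0 counts in all 73 cells (up to 12.8 CPM), against 394 CPM in fibroblast-gate cells. Telocyte-gate cells also had 0 counts of Grem1. Pericyte-gate cells stood at 615 CPM, with 0 counts in those without the contractile sum. Chrdl1, another BMP antagonist, had 1 count. Fstl1, a follistatin-like secreted protein, was found in 61 cells at 1278 CPM, with 1293 in fibroblast-gate cells. For WNT, Sfrp1 was found in 37 cells at 393 CPM (317 to 482), below the 1247 CPM of fibroblast-gate cells and above the 49.6 CPM of telocyte-gate cells (ratio 7.92, 3.86 to 18.9). Dkk3, a member of the Dickkopf family, stood at 513 CPM in 48 cells, against 343, 645 and 263 in fibroblast-gate, telocyte-gate and pericyte-gate cells. Sfrp2 had 0 counts. Of 6 BMP antagonists, 1 was lower than in fibroblast-gate cells and 3 than in pericyte-gate cells (medians -0.08, 0.14 and -1.27, telocyte-gate cells second). Of 4 WNT antagonists, 1 was higher than in telocyte-gate and 1 lower than in pericyte-gate cells (medians -0.93, -0.16 and 0.46).

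Grem1 was counted in the Des-rich cells that the gate left out. Their Grem1 counts were 30, 6, 6, 40 and 11 UMIs, so each of the 5 cells held the gene. Of the 16 left-out cells with more Des than Hhip, these 5 alone held it. Among the left-out cells with at least as much Hhip as Des, 1 cell held 5 counts. Pooled, Grem1 stood at 2113 CPM. Rspo3, which strengthens WNT signalling, stood at 386 CPM there and had 2 counts in the 73 cells. Ptn (pleiotrophin) stood at 568 CPM there and had 1 count in the 73 cells. F2r, the thrombin receptor, had 0 counts in all 5 (up to 68.1 CPM), against 979 CPM in contractile-gate cells. Hhip stood at 22.7 CPM there and at 4429 CPM in contractile-gate cells, but it is one of the genes that chose both sets.

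Other cells left out for Rgs5 and Notch3 were rich in Hhip. In the 12 with at least as much Hhip as Des, 10 with more and 2 with equal counts, Hhip stood at 5837 CPM, Acta2 at 19174, Postn at 4106, F2r at 611 and Mfap5 at 645. Rspo3 stood at 204 CPM there. These 12 cells held 29467 UMIs, so that 1 count is 33.9 CPM.

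**Figure D2:**
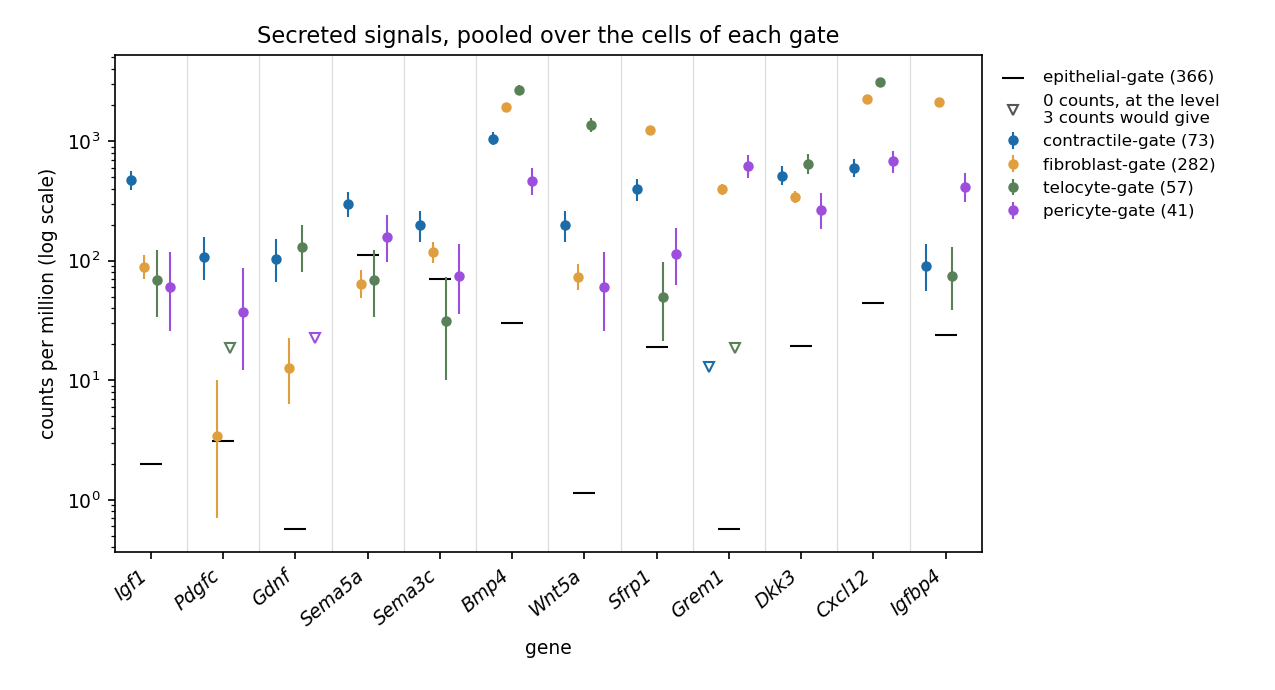
CPM (log axis) of 12 secreted signals, pooled over the cells of each gate, with exact 95% Poisson intervals as bars, epithelial-gate cells as black dashes and open triangles at the level 3 counts would give where a gene had 0 counts. Igf1 lies highest in contractile-gate cells (470 CPM), Bmp4 lies between the groups (1047 CPM), and Grem1 has 0 counts in contractile-gate and telocyte-gate cells.

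Guidance molecules were detected at low to moderate levels. Sema5a, a semaphorin that guides axons and vessels, was found in 36 cells at 295 CPM (229 to 373), against 64.3 in fibroblast-gate and 68.3 in telocyte-gate cells, while epithelial-gate cells stood at 112 CPM. Sema3c was found in 25 cells at 197 CPM, against 31.0 in telocyte-gate and 70.3 in epithelial-gate cells. Jag1, a Notch ligand, stood at 98.3 CPM in 14 cells, with 21.8 in fibroblast-gate and 210 in pericyte-gate cells. Of 13 genes of this list, 1 (Slit3) was lower than in fibroblast-gate cells, 1 (Sema3c) was higher and 1 (Sema3f) lower than in telocyte-gate cells, and 1 (Sema3d) was lower than in pericyte-gate cells. The medians were 0.66, 1.51 and 0.42 on the log2 scale.

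Cytokines and chemokines were sparse. Il6, Cxcl13 and Ccl2 had 0 counts, and Ccl11 (eotaxin) had 5 counts in 2 cells (21.4 CPM). Ccl11 stood at 547 CPM in fibroblast-gate, 49.6 in telocyte-gate and 203 in pericyte-gate cells. Cxcl12, the ligand of CXCR4, had 140 counts in 18 cells, of which 68.6% lay in 3. It stood at 598 CPM over the 73 cells and at 134 CPM in the 48, against 2230 in fibroblast-gate and 3097 in telocyte-gate cells. All 62 Ccl21a counts lay in 2 cells and all 75 Ccl21c counts in 1, so their levels describe those cells, and the split of reads between these near-identical copies is uncertain. Csf1, the macrophage growth factor, was found in 27 cells at 171 CPM (122 to 233), with 297 in fibroblast-gate and 273 in telocyte-gate cells. Of 17 genes counted, 7 were at least 4-fold lower than in fibroblast-gate cells, 3 than in telocyte-gate and 3 than in pericyte-gate cells, and Ccl21a alone was higher. The median log2 folds were -1.31, -0.62 and -0.18.

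The matrix of the contractile-gate cells held less of most fibroblast products and as much Postn. Fibrillar collagens took a median of 0.85% of a cell's UMIs and 2.28% in fibroblast-gate cells. Col1a2 and Col3a1, chains of collagens I and III, stood at 2719 and 2689 CPM, against 6135 and 6032 in fibroblast-gate and 1606 and 1373 in pericyte-gate cells. Dcn, a small proteoglycan that binds collagen, stood at 1342 CPM against 10809 (ratio 0.124, 0.111 to 0.139). Eln, the elastin precursor, had 8 counts (34.2 CPM) against 841 CPM. Fbln1 and Col14a1 were also low, but both belong to the genes that chose the fibroblast-gate cells. Postn, periostin, was found in 69 cells (median 8 UMIs, highest 46) and stood at 3599 CPM (3360 to 3851), against 3170, 1719 and 1853 in fibroblast-gate, telocyte-gate and pericyte-gate cells and 5513 in the 48 cells of no other gate.

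Several matrix genes were kept or higher. Mfap5, a microfibril protein, was found in 37 cells at 338 CPM, near the 297 of fibroblast-gate cells (ratio 1.14, 0.872 to 1.47), with 0 counts in telocyte-gate cells and 546 CPM in the 48 cells. Spon1, F-spondin, was found in 38 cells at 261 CPM, against 258 in fibroblast-gate and 43.4 in telocyte-gate cells, and at 443 CPM in the 48. Tgfbi, a matrix protein induced by TGF-beta, was found in 49 cells at 757 CPM, against 141 in fibroblast-gate cells (ratio 5.36, 4.24 to 6.80) and 726 in telocyte-gate cells. Ltbp1, which stores latent TGF-beta in the matrix, stood at 389 CPM against 188 and 93.1. Cpxm2, a member of the carboxypeptidase X family, was found in 44 cells at 419 CPM (340 to 511), against 34.4, 68.3 and 45.0 in the 3 groups and 1.13 in epithelial-gate cells. Plau, the urokinase plasminogen activator, was found in 15 cells at 85.5 CPM, against 5.74 in fibroblast-gate and 99.3 in telocyte-gate cells.

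By list, the matrix genes leaned lower against fibroblast-gate cells. At least 4-fold lower were 2 of 15 fibrillar and associated collagens, 5 of 15 elastic fibre genes, 4 of 23 proteoglycans and matricellular genes, 2 of 19 proteases and inhibitors and 1 of 12 basement membrane genes, and 1 gene in all (Plau) was higher. The median log2 folds were -1.16, -1.16, -1.10, -1.10 and -0.09 in that order. Over all genes, 1.14% were at least 4-fold lower and 0.99% higher than in fibroblast-gate cells. The collagen list holds Col14a1 and the elastic fibre list Fbln1, which chose the fibroblast-gate cells, so their lower levels are built into these counts. Against telocyte-gate cells the numbers higher and lower were 0 and 0, 2 and 0, 1 and 1, 0 and 1, and 0 and 1, with medians of -1.37, -0.75, -0.70, -0.83 and -0.98. Against pericyte-gate cells they were 0 and 2, 0 and 1, 2 and 1, 0 and 2, and 1 and 0, with medians of 0.24, 0.33, 0.50, -0.43 and -0.04. Col4a1, a basement membrane collagen chain, stood at 975 CPM against 908, 1297 and 1598 in fibroblast-gate, telocyte-gate and pericyte-gate cells. Cilp and Thbs4, the genes of the matricellular list that were higher than in pericyte-gate cells, lay in 3 and 6 cells, and Thbs4 stood at 392 CPM in epithelial-gate cells. Of 6 TGF-beta ligands and binding proteins, Tgfbi alone was called (medians -0.07, 0.21 and 0.77).

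**Figure D3:**
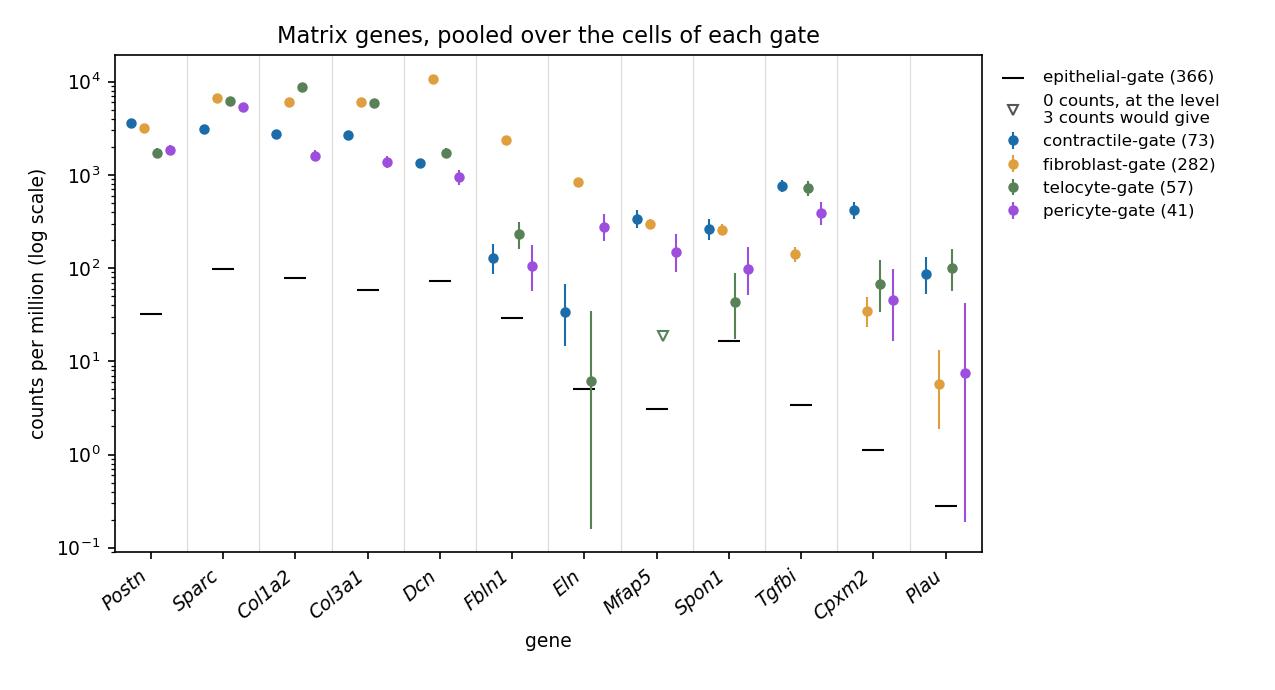
CPM (log axis) of 12 matrix genes, pooled over the cells of each gate, with exact 95% Poisson intervals as bars, epithelial-gate cells as black dashes and open triangles at the level 3 counts would give where a gene had 0 counts. Contractile-gate cells lie below fibroblast-gate cells for Dcn (1342 against 10809 CPM) and Eln (34.2 against 841), beside them for Postn (3599 against 3170) and above all 3 groups for Cpxm2 (419 CPM).

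Receptors set the cells apart less by absence than by level. F2r was found in 54 cells, with 0 to 19 UMIs and a median of 2, and stood at 979 CPM (856 to 1114). It stood at 305, 397 and 195 CPM in fibroblast-gate, telocyte-gate and pericyte-gate cells and at 9.04 in epithelial-gate cells. The ratios were 3.21 (2.68 to 3.84), 2.46 (1.86 to 3.31) and 5.02 (3.34 to 7.85). In the 48 cells F2r stood at 1494 CPM. P2ry14, a receptor for UDP-sugars, was found in 45 cells at 410 CPM (332 to 501), against 67.7, 230 and 233 CPM in these groups and 618 in the 48 cells. Lpar1, a lysophosphatidic acid receptor, stood at 427 CPM in 40 cells, against 785 in fibroblast-gate and 173 in pericyte-gate cells. Agtr1a, the angiotensin receptor, had 0 counts. Of 17 neurotransmitter and hormone receptors with enough counts, out of 36 in the table, 1 was higher and 1 lower than in fibroblast-gate cells, 0 and 0 than in telocyte-gate cells, and 1 and 1 than in pericyte-gate cells (medians -0.25, -0.29 and -0.45).

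Growth factor receptors were mostly at the level of the other groups. Tgfbr3 (betaglycan), a co-receptor of TGF-beta ligands, was found in 55 cells at 667 CPM (566 to 780), against 363, 137 and 353 CPM. Ryk, a WNT receptor, stood at 654 CPM in 52 cells, against 400, 751 and 285. Pdgfra, the receptor of PDGFC, had 89 counts in 6 cells and 0 in the 48 cells of no other gate, and it belongs to the genes that chose telocyte-gate cells. Pdgfrb stood at 85.5 CPM in 15 cells against 653 in pericyte-gate cells (142 in fibroblast-gate cells). Cd74, chaperone of class II molecules and a cytokine receptor, had 84 of its 90 counts in 1 cell. Of 47 receptors, 0 were higher and 1 (Fzd1) lower than in fibroblast-gate cells, 2 and 1 than in telocyte-gate cells, and 1 and 3 than in pericyte-gate cells, with medians of -0.38, -0.16 and -0.06. Pdgfra was the 1 lower than in telocyte-gate cells. Notch3, which the rule limits and which chose pericyte-gate cells, was 1 of the 3 lower than there. Both calls are built in by the gates.

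Hedgehog receptors were detected in many of the cells. Ptch1, the Hedgehog receptor and itself a gene the pathway induces, was found in 47 cells at 616 CPM (519 to 725), against 270, 782 and 210 CPM in fibroblast-gate, telocyte-gate and pericyte-gate cells. Gas1, a co-receptor, was found in 28 cells at 286 CPM (222 to 364), against 56.2 in fibroblast-gate cells and 0 counts in telocyte-gate cells. Foxf1, a transcription factor downstream of the pathway, stood at 457 CPM in 39 cells, against 332, 664 and 390. Of 11 genes, Gas1 was the gene called against fibroblast-gate and telocyte-gate cells, and 0 were called against pericyte-gate cells. The medians were 0.44, -0.02 and 0.51. Hhip was left out of this list because it chose the cells.

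Several ion channels and calcium proteins were higher than in fibroblast-gate cells. Kcnma1 and Kcnmb1, the pore and the beta 1 subunit of the calcium-activated potassium channel that relaxes smooth muscle, stood at 244 CPM in 30 cells and at 133 CPM in 20. In fibroblast-gate cells they stood at 22.9 and 4.59 CPM. In pericyte-gate cells they stood at 240 and 113 CPM, but those without the contractile sum held 1 and 0 counts. Casq2, the calsequestrin that buffers stored calcium, was found in 38 cells at 423 CPM, against 19.5 in fibroblast-gate, 254 in telocyte-gate and 90.0 in pericyte-gate cells. Cav1, the caveolar coat protein, was found in 60 cells at 1086 CPM, against 236 in fibroblast-gate and 1564 in telocyte-gate cells. Pln, phospholamban, had 0 counts in the 73 cells and also in the 5 Des-rich cells, and stood at 218 CPM in pericyte-gate cells. Of 25 genes counted, 5 were at least 4-fold higher than in fibroblast-gate cells, 1 was higher and 1 lower than in telocyte-gate cells, and 1 was higher and 2 lower than in pericyte-gate cells, with medians of 0.48, 0.12 and -0.57. The 2 lower than in pericyte-gate cells were Pln and Kcnj8, and Kcnj8 belongs to the genes that chose those cells.

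The relaxing pathway of nitric oxide and cyclic GMP was represented by Mrvi1, a substrate of the cyclic GMP kinase at the calcium store, which was found in 32 cells at 205 CPM (151 to 272). Mrvi1 stood at 13.8 CPM in fibroblast-gate, 124 in telocyte-gate and 180 in pericyte-gate cells, and at 371 CPM in the 48. Pde5a, which breaks down cyclic GMP, stood at 274 CPM against 97.5, 267 and 488. Ptges, the prostaglandin E synthase, had 6 counts against 198 CPM in fibroblast-gate cells. Of these 13 genes, 1 was higher and 1 lower than in fibroblast-gate cells and 0 differed so far from the others (medians -0.18, -0.73 and -0.13).

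Some attachment genes were also higher than in fibroblast-gate cells. Itga8, an integrin subunit of mesenchymal cells, was found in 23 cells at 124 CPM (83.0 to 178), against 6.88 in fibroblast-gate and 6.21 in telocyte-gate cells. Dmd and Dtna, dystrophin and its partner dystrobrevin, stood at 252 CPM in 31 cells and 158 CPM in 25 cells, against 66.5 and 9.18 in fibroblast-gate cells. In pericyte-gate cells they stood at 270 CPM each. Of 21 integrin and dystrophin complex genes, 2 were higher than in fibroblast-gate cells, 3 than in telocyte-gate cells and 0 than in pericyte-gate cells, with 0 lower (medians 0.48, 0.40 and -0.07).

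Among 40 transcription factors, Myocd, the cofactor of serum response factor that drives smooth muscle genes, was found in 18 cells at 89.8 CPM (55.6 to 137). It stood at 5.74 CPM in fibroblast-gate cells, at 37.5 in pericyte-gate cells and had 0 counts in telocyte-gate cells and in the 21 pericyte-gate cells without the contractile sum. Zeb2 stood at 321 CPM in 47 cells, against 391, 37.2 and 443 in fibroblast-gate, telocyte-gate and pericyte-gate cells. Tcf21, a factor of fibroblast precursors, was found in 57 cells at 889 CPM, against 1618, 434 and 608. Heyl and Hey1, targets of Notch, had 1 and 2 counts, against 210 and 135 CPM in pericyte-gate cells. Hoxb13 had 72.7% of its 55 counts in 3 cells and stood at 938 CPM in epithelial-gate cells. Against fibroblast-gate cells 1 factor was higher and 0 lower, against telocyte-gate cells 2 and 1, and against pericyte-gate cells 1 and 4, with medians of 0.19, 0.11 and -0.30.

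**Figure D4:**
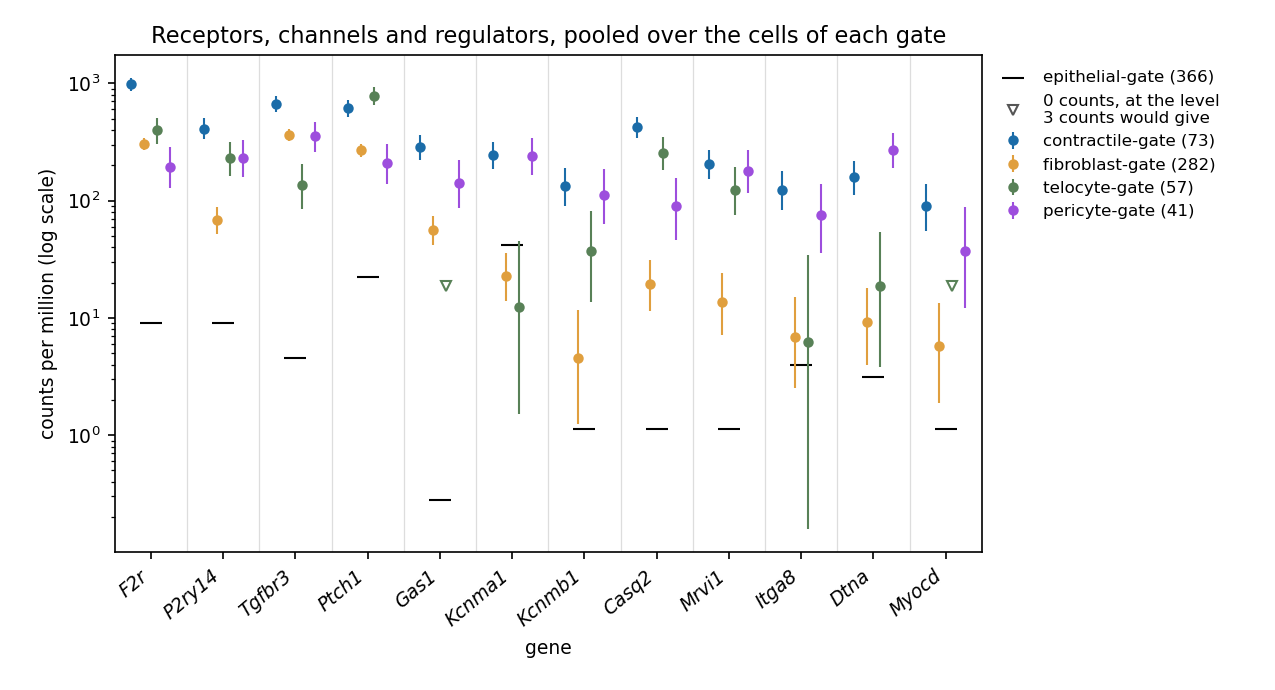
CPM (log axis) of 12 receptors, channels, attachment genes and regulators, pooled over the cells of each gate, with exact 95% Poisson intervals as bars, epithelial-gate cells as black dashes and open triangles at the level 3 counts would give where a gene had 0 counts. F2r (979 CPM), P2ry14 (410) and Casq2 (423) lie highest in contractile-gate cells, while Kcnma1 (244) lies beside pericyte-gate cells (240). Pericyte-gate cells without the contractile sum held 1 count of Kcnma1.

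Complement and antigen genes were low to even. C3 and C4b, central complement components, stood at 85.5 and 29.9 CPM against 1112 and 769 in fibroblast-gate cells, and the 20 C3 counts lay in 4 cells. Cd55, an inhibitor on the membrane, had 2 counts. Cd59a, which blocks the membrane attack complex, was found in 19 cells at 150 CPM (104 to 208), against 16.1, 6.21 and 22.5 in the 3 groups. Of 11 complement genes, 1 was higher and 4 lower than in fibroblast-gate cells, 2 were higher than in telocyte-gate cells and 1 lower than in pericyte-gate cells (medians -1.61, -0.03 and 0). Of 12 class I and interferon genes, 0 were called against any group (medians -0.42, -0.21 and -0.03). B2m, the light chain of class I molecules, stood at 1188 CPM against 1841 in fibroblast-gate cells.

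Stress and division genes gave few calls. Among 18 immediate early and heat shock genes, which dissociation is known to induce, Hspb1 alone was called, at 727 CPM in 48 cells against 95.2 in fibroblast-gate cells and 863 in pericyte-gate cells, and the medians were -0.71, -0.23 and -0.42. Fos stood at 4642 CPM against 8651 in fibroblast-gate cells. Per cell the list took 0.27% to 7.16% of UMIs in contractile-gate cells (median 2.01%) and a median of 3.61% in fibroblast-gate cells. Of 12 cell cycle genes only Pcna had enough counts, at 137 CPM against 132 in fibroblast-gate cells.

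Outside the lists, the widest folds against the pooled groups included actin and stress fibre genes. Fam101b, which organises actin filaments with filamin, was found in 55 cells at 710 CPM, against 80.3 in fibroblast-gate and 184 in epithelial-gate cells. Ctxn1, a small membrane protein, was found in 20 cells at 145 CPM, against 3.44 in fibroblast-gate cells. Actc1, the cardiac alpha actin, had 23 counts in 9 cells (98.3 CPM) and 0 counts in the other 3 groups. Whether the counting split reads between Actc1 and Acta2 was not tested. Il1b and Il1r2 had 48 of 50 and 24 of 25 counts in 1 cell each. At the low end stood Igfbp3, Igfbp4, Grem1, Cxcl13 and Eln, and also Tnfaip6 and Nrp1, which had 6 counts each against 810 and 753 CPM in fibroblast-gate cells.

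**Figure D5:**
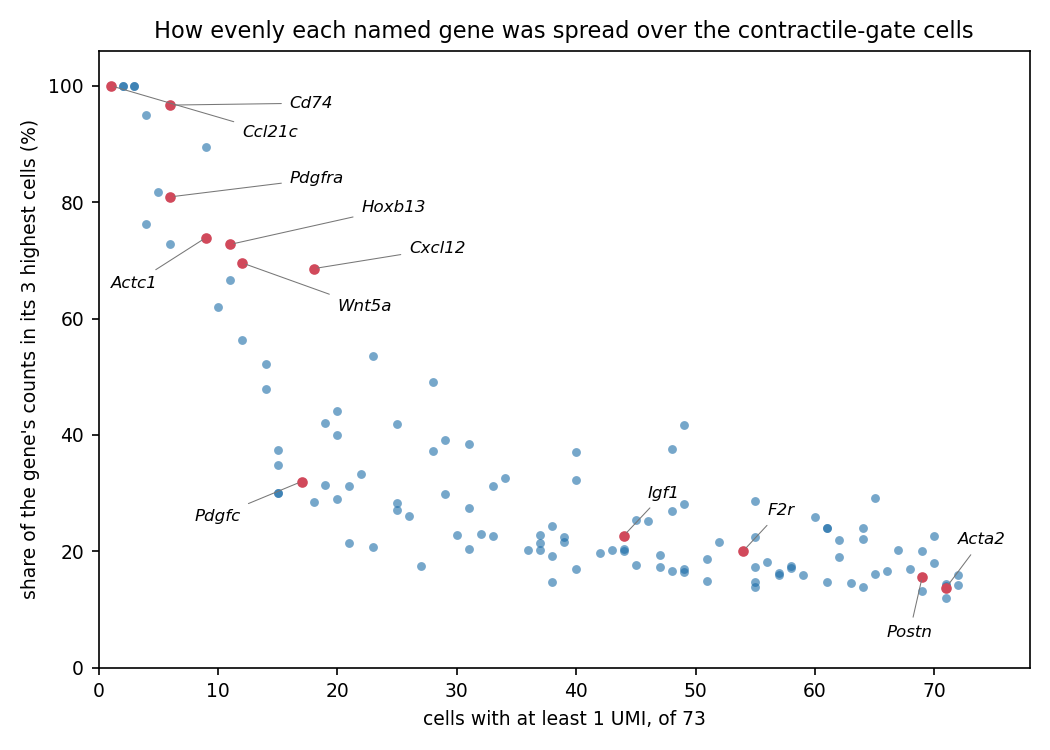
Each point is a named gene with 20 or more counts in the 73 contractile-gate cells, by the number of cells with a UMI (horizontal) and the share of its counts in its 3 highest cells in percent (vertical), with the labelled genes in red. Acta2, Postn, F2r and Igf1 lie at the lower right, spread over 44 to 71 cells, while Ccl21c, Cd74, Pdgfra and Cxcl12 lie at the upper left, in 1 to 18 cells.

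Under the same gate the tumor libraries gave 7 cells of 7396. Day 1 replicate 1 and replicate 2 gave 0 cells each, which allows shares of up to 0.401% and 0.125% at the level of 3 cells (exact upper limits 0.492% and 0.153%), day 3 gave 1 cell (0.07%) and day 6 gave 6 (0.212%, exact interval 0.078 to 0.462). These 7 cells had 1344 to 4329 UMIs and 7 to 98 UMIs of Acta2. Hhip was found in 2 of them (1 and 6 UMIs), Des in 1, Igf1 in 0 and Postn in 2 with 1 UMI each, and 3 of the 7 also passed the epithelial gate. The study's methods kept the crypt fraction of tumors on a filter and discarded what passed it, so preparation, tumor and treatment cannot be told apart in these shares.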

How the data were processed

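The deposited files hold raw UMI counts per gene and cell, which the authors made from inDrop reads with dropEst against GRCm38.85. Files of 5 libraries were read. The cell groups compared all come from the 1 normal colon library, so no test was run. Barcodes with at least 500 genes and at most 15% mitochondrial counts were kept. Cells were gated by summed raw counts: 5 or more for the contractile, fibroblast and telocyte genes, 4 for pericyte, 10 for epithelial and 3 for endothelial, immune and glial genes. Cells passing several gates stayed in the contractile set where its rule held. Counts were summed per gate and given as CPM with exact 95% Poisson intervals, and ratios carry exact conditional intervals. Both cover counting error only. A gene was called at a 4-fold ratio after 20 CPM were added, among genes with 20 or more counts over the 4 mesenchymal groups. Genes of the gates were not left out of the counts over all genes. Doublets were scored with Scrublet in scanpy 1.11.5, not removed. Python 3.11.15, numpy 2.4.6, scipy 1.17.1 and pandas 2.3.3 were used, and the script for folds and intervals was tested on simulated data.

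The cells and gene lists were chosen with earlier results of these data known. From each list the text names the genes called against any of the 3 groups and the 3 with the highest CPM, and over all genes the 12 highest and 8 lowest folds against the pooled groups. Genes of any gate, those with a CArG box and those of the Des-rich cells are named beside this rule. Some listed genes were not used here, and some results are not reported here.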

Additional observations from a re-analysis of the deposited data

How the results depend on the processing

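No paired analysis was possible because the cell groups compared all come from 1 library and no test was run. With 50 CPM added in place of 20, the genes at least 4-fold higher and lower numbered 31 and 54 against fibroblast-gate, 39 and 23 against telocyte-gate, and 22 and 47 against pericyte-gate cells. Without cells that pass the gate of another cell type they numbered 127 and 193 against fibroblast-gate and 433 and 278 against telocyte-gate cells, with 174 lower against pericyte-gate cells. Genes higher than in pericyte-gate cells numbered 128 with a gate of 3 UMIs and 241 without the limit on Rgs5 and Notch3, which raised the share of kept cells to 9.22%. Genes lower than in telocyte-gate cells numbered 131 with a gate of 10 UMIs and 120 as a mean of each cell's CPM. In a setting chosen after seeing the data, pericyte-gate cells with 5 or more contractile UMIs were left out, and 254 genes were higher and 188 lower. The cause of these shifts was not tested. Of 1638 levels of 182 named genes over the alternatives, 1191 stayed within their counting interval. Leaving out cells that pass another gate moved 110 of the 182, and dropping the limit on Rgs5 and Notch3 moved 80. At this depth a gene with 0 counts may stand at up to 15.8 CPM (exact upper limit).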
